A study of Mus musculus with 6 samples.

Results

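Carboxypeptidases remove amino acids from the C-terminal end of proteins and peptides. In the pancreas, 6 of their genes, Cpa1, Cpb1, Cpa3, Cpe, Cpd and Cpm, were followed across 3 Ela1-Myc and 3 wild-type (WT) libraries of polyadenylated RNA from the whole pancreas of 8-week-old mice. They were taken by gene symbol from 23099 symbols in the deposited values. Ela1-Myc mice carry Myc, a transcription factor gene that drives cell growth and division, behind the promoter of elastase 1, which is active in acinar cells, the cells that make the digestive enzymes. Both groups share tissue, age and library type, and the labels name no strain, sex, litter or number of animals behind a library. Whether the 3 libraries of each group stem from different mice is not stated; p-values reflect the scatter among libraries only, which could be technical.

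The 6 genes serve different cells. Cpa1 and Cpb1 encode digestive zymogens, inactive precursors that acinar cells store in granules and that trypsin activates in the gut; carboxypeptidase A1 takes off aromatic and aliphatic residues, and carboxypeptidase B1 takes off the basic residues that trypsin cleavage leaves exposed. Cpa3 encodes a close relative of the A type that is kept in the granules of mast cells. Cpe encodes carboxypeptidase E, which trims basic residues from hormone precursors after the prohormone convertases have cut them, insulin's among them. Cpd and Cpm encode general enzymes of the same trimming type, carboxypeptidase D in the trans-Golgi network and carboxypeptidase M at the cell surface.

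Values are the authors' adjusted FPKM (sequenced fragments per transcript length and mapped fragments), divided here by the constant 100000. They are per length, but the authors' way of adjusting them is not stated, so comparisons of levels between different genes are approximate. Depth is unknown, since no counts were used here. Myc stood at 52.0, 34.4 and 34.2 in Ela1-Myc libraries 1 to 3, against 4.10 in WT library 2 and a listed 0 in WT libraries 1 and 3 and every Ela1-Myc library lay above every WT library. A listed 0 is no evidence of absence: Gapdh, a gene of glycolysis that every cell uses, was at 0 in WT libraries 1 and 3. The sum of values ran from 629597 to 1088320.0 in Ela1-Myc and from 669391 to 1948840.0 in WT, and the RNA integrity number was 8.8, 7.2 and 8.3 in Ela1-Myc and 7.3, 7.3 and 7.1 in WT. The deposited values of most tested genes, those with a mean of at least 1, differed between the 2 groups. Of the tested genes, 1061, 592 and 1426 were listed at 0 in WT libraries 1 to 3. In Ela1-Myc libraries 1 to 3 the numbers were 0, 29 and 13. How far the listed zeros enter the difference was not tested. On the deposited scale the median of 8802 tested genes lay 1.22 log2 units higher in Ela1-Myc. Median-of-ratios scaling, which sets each library's scale by its median gene, brought this to 0.24. Changes of the 6 genes are therefore given on both scales.

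Cpa1 and Cpb1 were among the most abundant transcripts of every library. By level, Cpa1 held ranks 10, 14 and 11 in Ela1-Myc and ranks 10, 7 and 11 in WT, and Cpb1 held ranks 12, 11 and 12 in Ela1-Myc and ranks 12, 12 and 10 in WT. The other 4 genes lay far below. Cpe stood between ranks 732 and 2541 in Ela1-Myc and between ranks 625 and 2168 in WT. Cpd stood between ranks 4849 and 6467 in Ela1-Myc and between ranks 3599 and 5862 in WT, and Cpa3 and Cpm were lower still in each Ela1-Myc library. Ranks depend on the other genes of a library and are no test of a change.

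**Figure D1:**
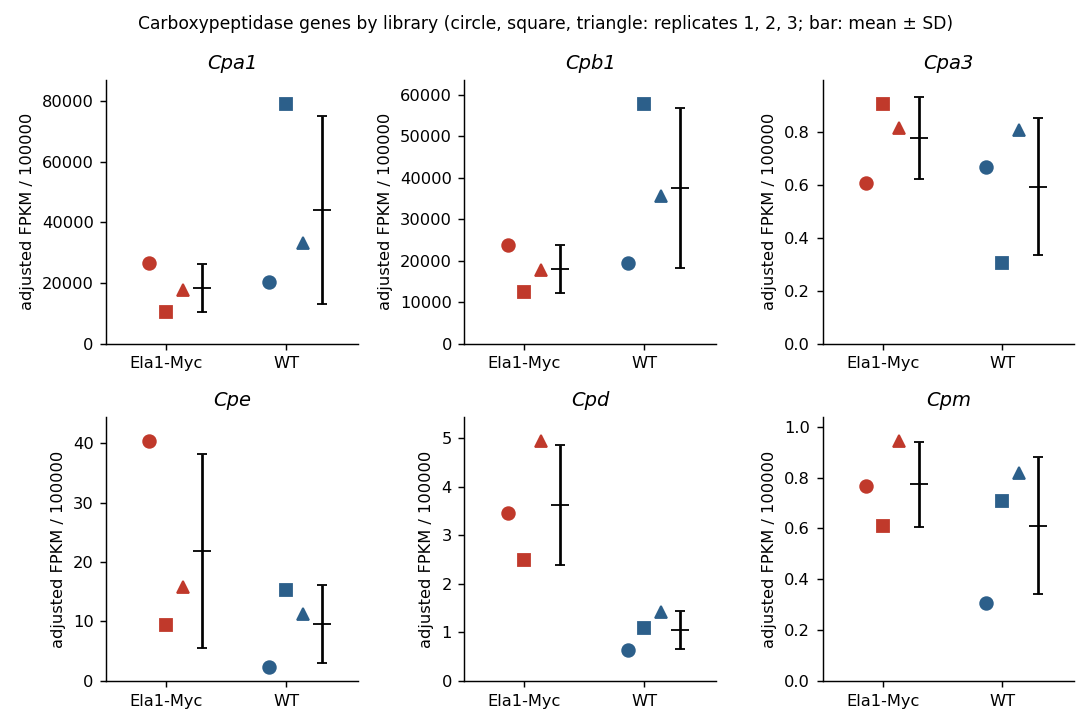
Adjusted FPKM divided by 100000 (vertical axis, linear from 0, a separate scale per gene) for the 6 carboxypeptidase genes, with 1 point per library and the mean ± SD of 3 libraries beside each group, Ela1-Myc left and WT right. Only Cpd has all 3 Ela1-Myc libraries, at 2.49 to 4.94, above all 3 WT libraries, at 0.627 to 1.41.

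Cpa1 (chromosome 6, 30639221 to 30645361, plus strand, GRCm38) had levels of 26517, 10546 and 17738 in Ela1-Myc libraries 1 to 3, against 20138, 79070.4 and 33007 in WT libraries 1 to 3. The groups overlapped, with WT library 1 below Ela1-Myc library 1, and WT library 2 stood far above all others. The mean level was 18267 ± 7999 in Ela1-Myc and 44072 ± 30985 in WT (SD, n = 3 each). On the deposited scale the log2 change was -1.14 (SE 0.477, 95% interval -2.16 to -0.115; limma adjusted p = 0.0455). Scaled by median of ratios, its levels were 15862, 6973 and 9244 in Ela1-Myc, against 49553, 84608 and 60825 in WT. The scaled groups did not overlap, and the log2 change was -2.65 (SE 0.352; limma adjusted p = 0.00399).

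Cpb1 (chromosome 3, 20249484 to 20275729, minus strand) followed the same order. Its levels were 23875, 12430.2 and 17726 in Ela1-Myc, against 19420.3, 57874 and 35651 in WT, again with WT library 1 inside the Ela1-Myc range. Mean levels were 18010.4 ± 5728 in Ela1-Myc and 37648 ± 19304 in WT (SD, n = 3 each), and the log2 change was -0.98 (SE 0.417, 95% interval -1.87 to -0.0833; limma adjusted p = 0.0487). Scaled levels were 14281, 8218 and 9238 in Ela1-Myc, against 47786 to 65697 in WT, a log2 change of -2.50 (SE 0.264; limma adjusted p = 0.0019). Both genes thus fell on both scales, narrowly on the deposited one, where leaving out any library but WT 1 ended both calls (adjusted p up to 0.346 for Cpa1 and up to 0.32 for Cpb1, each without WT library 2). After scaling both calls held whichever library was left out, with log2 changes of -2.96 to -2.37 for Cpa1 and -2.71 to -2.31 for Cpb1.

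Calls of a decrease were rare on the deposited scale. Among the tested genes, 0.239% were called lower and 70.2% higher, and the 4 carboxypeptidase genes that passed the filter had 2 called lower (Cpa1 and Cpb1), 1 called higher (Cpd) and 1 not called (Cpe). After scaling 7.95% of tested genes were called lower and 18.1% higher, and the same 2 genes were called lower and none higher. Of 47 genes with a mean of at least 1000, to which Cpa1 and Cpb1 belong, 28 were lower on the deposited scale, with a median log2 change of -0.68. The median was 1.18 for means of 1 to 10, 1.64 for the 1461 genes with means of 10 to 100 and 1.88 for the 222 genes with means of 100 to 1000. In bulk tissue, fewer cells of a type and less RNA per cell cannot be told apart.

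**Figure D2:**
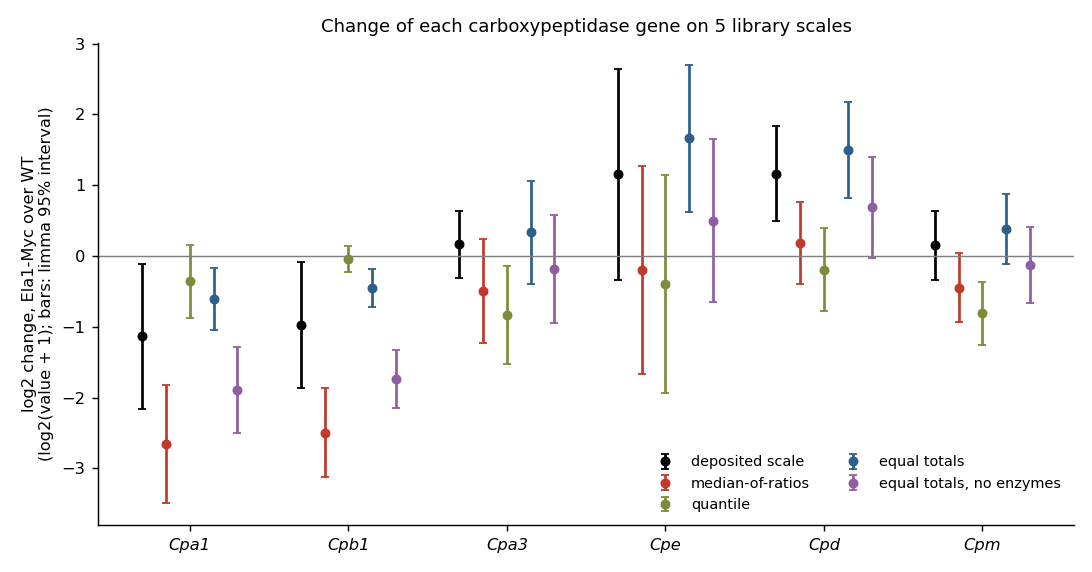
Log2 change of each carboxypeptidase gene, Ela1-Myc over WT (vertical axis, on log2(value + 1)), under 5 ways of setting the library scale, with limma 95% intervals over 3 libraries a group. Point estimates of Cpa1 and Cpb1 lie below 0 on all 5 scales. After quantile normalization their intervals cross 0 (Cpa1 -0.87 to 0.16, Cpb1 -0.22 to 0.14). That scale sets values by rank, and both genes held similar ranks in every library, so it can show little change for them. Cpa3, Cpe, Cpd and Cpm lie above 0 on the deposited scale and below 0 after quantile normalization.

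Expressed as a share of the library, which needs no scale between libraries but depends on the other abundant genes, the digestive pair was smaller in Ela1-Myc. Cpa1 and Cpb1 together held 4.63%, 3.65% and 4.67% of the summed values in Ela1-Myc, against 5.91%, 7.03% and 5.82% in WT, which is 4.32% ± 0.580 in Ela1-Myc and 6.25% ± 0.673 in WT (SD, n = 3 each). Each Ela1-Myc library lay below each WT library (exact permutation test, two-sided p = 0.1, which 3 against 3 libraries cannot go below). Set against the summed values outside the digestive enzyme lists, the pair came to 12.0%, 7.58% and 12.2% in Ela1-Myc and 33.2%, 42.6% and 34.6% in WT. Cpb1's own share was tight in WT, at 2.90%, 2.97% and 3.02%, against 2.19%, 1.97% and 2.34% in Ela1-Myc. Non-overlapping lower shares occurred in 0.523% of tested genes, and higher ones in 89.1%. Cpe, Cpd and Cpm were on that majority side: Cpe held 37.1, 15.03 and 20.7 parts per 1000000 in Ela1-Myc, against 3.46, 7.82 and 9.47 in WT. For Cpd the shares were 3.17, 3.96 and 6.51 parts per 1000000 in Ela1-Myc, against 0.936, 0.560 and 1.19 in WT. Cpm's shares nearly touched, at 0.703 to 1.24 parts per 1000000 in Ela1-Myc and 0.363 to 0.693 in WT.

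Among the digestive enzymes themselves, the pair kept its place. Shares were taken of the summed values of 31 digestive enzyme, zymogen, inhibitor and granule protein genes. Of that sum, Cpa1 and Cpb1 made up 7.54%, 7.04% and 7.56% in Ela1-Myc, against 7.19%, 8.41% and 6.99% in WT. The means were 7.38% ± 0.296 in Ela1-Myc and 7.53% ± 0.771 in WT (SD, n = 3 each; exact two-sided permutation p = 0.9), and the groups overlapped. The ratio of Cpb1 to Cpa1 was 0.90, 1.18 and 0.999 in Ela1-Myc and 0.964, 0.732 and 1.08 in WT, a fold of 1.12 between geometric means (exact permutation p = 0.5). Its lowest value came from WT library 2, the library with the highest Cpa1. These p-values do not show that the ratios were equal, since 3 against 3 libraries cannot reach 0.05. Cpa4 and Cpa5, which lie within 200 kb of Cpa1 on chromosome 6, were near 0 in all libraries, at no more than 0.0165 in Ela1-Myc and 0.0442 in WT.

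The other digestive enzymes mostly moved with the pair once the libraries were scaled. In the whole tested set, 0.239% of genes were called lower and 70.2% higher as deposited. Once scaled, these shares were 7.95% lower and 18.1% higher. Of the 18 genes for other digestive enzymes, 17 were tested; 9 fell and 2 rose on the deposited scale, with a median log2 change of -1.26, and 15 fell and 2 rose after scaling, with a median of -2.78. The 2 that rose on both scales were the amylase genes Amy2a5 and Amy2b, near-identical copies whose reads may be divided uncertainly and which were listed at 0 in WT libraries 1 and 3. Cela1, the mouse elastase 1 gene, fell by 1.39 on the log2 scale (limma adjusted p = 0.00488) and after scaling by 2.91 (limma adjusted p = 0.00109); without WT library 2 the change on the deposited scale did not pass (limma adjusted p = 0.132).

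**Figure D3:**
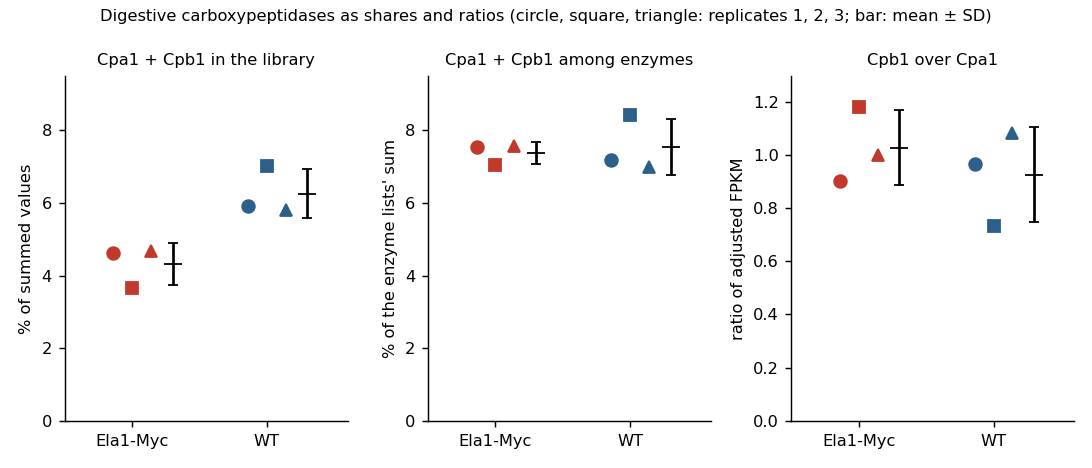
The left panel shows the share of Cpa1 plus Cpb1 in each library's summed values (%). The middle panel shows their share in the sum of 31 digestive enzyme, zymogen, inhibitor and granule protein genes (%), and the right panel the ratio of Cpb1 to Cpa1. Points are libraries and bars the mean ± SD of 3. The groups separate in the first panel, at 3.65% to 4.67% in Ela1-Myc and 5.82% to 7.03% in WT, and overlap in the other two.

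Across the 6 libraries, the genes that tracked the pair most closely included other digestive enzyme genes. Likeness was measured as the SD over 6 libraries of the log2 ratio of 2 genes, among 2460 other genes above 0 in every library and with a mean of at least 5; it is a description and carries no test, and all points share the same libraries. For Cpb1 the closest were Dmbt1 (SD 0.0812), which encodes a secreted scavenger receptor protein, P2ry14 (0.0948), a receptor for UDP-glucose, Cel (0.102), the bile salt-activated lipase, and 2210010C04Rik (0.110). For Cpa1 the closest were Ctrl (0.201), a chymotrypsin-like protease, 1810008I18Rik (0.214), Dmbt1 (0.220) and Cela3b (0.223), an elastase. The median SD over all candidates was 1.38 against Cpb1 and 1.49 against Cpa1. The pair stood at 0.237 from each other.

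Promoter sequences of Cpa1 and Cpb1 are shown because the 2 genes moved together, and that of Cpa3 because it lies beside Cpb1 and did not. Each is the RefSeq window from 250 bases before to 50 bases after the annotated start (GRCm38.p6), read 5′ to 3′ on the gene's strand, at chr6:30638968-30639267 (plus) for Cpa1, chr3:20275684-20275983 (minus) for Cpb1 and chr3:20242132-20242431 (minus) for Cpa3. Capitals mark matches, on either strand, to CANNTG, the E-box, to TGGGAA, the TC-box, which with an E-box forms the site of the acinar factor PTF1, or to TATAAA, the TATA box.
Cpa1: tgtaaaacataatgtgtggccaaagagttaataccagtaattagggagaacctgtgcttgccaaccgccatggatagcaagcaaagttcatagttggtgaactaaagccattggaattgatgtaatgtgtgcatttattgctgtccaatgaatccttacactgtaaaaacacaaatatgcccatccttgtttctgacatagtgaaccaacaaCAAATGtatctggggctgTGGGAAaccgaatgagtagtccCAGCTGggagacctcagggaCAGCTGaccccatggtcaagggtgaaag
Cpb1: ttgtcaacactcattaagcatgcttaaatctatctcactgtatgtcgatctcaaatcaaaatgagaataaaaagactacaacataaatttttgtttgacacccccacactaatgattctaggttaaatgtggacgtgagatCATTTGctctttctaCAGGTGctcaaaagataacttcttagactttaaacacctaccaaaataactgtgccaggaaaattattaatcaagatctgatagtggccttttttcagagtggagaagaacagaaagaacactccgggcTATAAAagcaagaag
Cpa3: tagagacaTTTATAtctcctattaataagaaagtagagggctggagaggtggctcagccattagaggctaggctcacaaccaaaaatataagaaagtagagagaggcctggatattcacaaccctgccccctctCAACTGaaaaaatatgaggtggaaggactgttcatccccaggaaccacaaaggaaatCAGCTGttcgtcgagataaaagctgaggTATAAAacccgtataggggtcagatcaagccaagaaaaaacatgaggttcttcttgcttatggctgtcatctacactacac
In Cpa1 the E-box letters CAAATG begin at -38 and the TC-box letters at -20, counted from the annotated start base as 0, with further E-boxes at 2 and 22. Cpb1 holds E-boxes at -109 and -94 and TATAAA at 35, inside the annotated transcript, and no TC-box letters. Cpa3 holds E-boxes at -116 and -59, TATAAA at -31 and the same letters on the other strand at -242. CACGTG, the E-box that MYC binds best with its partner MAX, is in none of the 3 windows; it is also an E-box match wherever it occurs. Of 32851 promoter windows of this length, 72.3% hold an E-box, 25.6% the TC-box letters, 13.6% TATAAA and 7.15% CACGTG. An E-box match is thus common, while most windows lack CACGTG. Windows of Cpd and Cpm hold none of the 4 motifs. A match describes letters only, and a window without one says nothing about the factor.

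Genes for activation and restraint of the zymogens showed no common direction on the deposited scale. They are read against 0.239% of all tested genes called lower and 70.2% higher on that scale, and 7.95% and 18.1% after scaling. Of 10 such genes 9 were tested; 1 fell, 2 rose and 6 did not pass, with a median log2 change of -0.68, and after scaling 6 fell and 1 rose. The 2 that rose, the trypsinogen genes Prss1 and Prss3, belong to a family of close copies whose reads may be divided uncertainly and were listed at 0 in WT libraries 1 and 3; Prss1 was not called after scaling. Ctrl, for a chymotrypsin-like protease, was the gene that fell, by 1.19 on the log2 scale (limma adjusted p = 0.0135) and by 2.70 after scaling (limma adjusted p = 0.00136); without Ela1-Myc library 2 or 3 or WT library 2 or 3 it did not pass on the deposited scale (limma adjusted p between 0.0537 and 0.203). Ctrb1, for chymotrypsinogen, had a log2 change of -0.68 that did not pass (limma adjusted p = 0.0955), passed without WT library 1 at -1.08 (limma adjusted p = 0.0077) and passed after scaling at -2.20 (limma adjusted p = 0.00574). Lxn encodes latexin, an inhibitor of A type carboxypeptidases; its levels were 15.4, 9.03 and 11.0 in Ela1-Myc and 3.34, 9.69 and 7.29 in WT. They overlapped, with a log2 change of 0.79 (limma adjusted p = 0.171) that turned to -0.55 after scaling (limma adjusted p = 0.19); without WT library 2 it passed on the deposited scale, at 1.06 (limma adjusted p = 0.0294). Acinar transcription factors numbered 9 tested, of which 4 were called higher on the deposited scale, against 70.2% of all tested genes. After scaling 1 was called higher and 3 lower, against 18.1% and 7.95% of all tested genes. The 1 called higher was Tcf3 (log2 change 1.27, limma adjusted p = 0.00491). The 3 called lower were Rbpjl (-1.62, limma adjusted p = 0.0129), Bhlha15 (-1.66, limma adjusted p = 0.012) and Gata6 (-1.02, limma adjusted p = 0.016). These 3 were not called on the deposited scale. Ptf1a itself was at 35.5, 11.5 and 17.0 in Ela1-Myc and 9.23, 26.5 and 20.3 in WT; the groups overlapped on this scale, and after scaling each Ela1-Myc library lay below each WT library, with an adjusted p above the threshold (limma adjusted p = 0.0679).

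Cpa3 (chromosome 3, 20215616 to 20242181, minus strand) ends 7302 bases from Cpb1, and lay orders of magnitude below it. Its levels were 0.605, 0.905 and 0.814 in Ela1-Myc, against 0.665, 0.304 and 0.806 in WT, with overlapping groups and WT library 2, the highest for Cpb1, as the lowest for Cpa3. With a mean below 1 it was not among the tested genes. In a fit without the filter, over 23099 symbols, it had a log2 change of 0.17 (SE 0.195, 95% interval -0.308 to 0.641; limma adjusted p = 0.469). In that fit 36.7% of symbols were called higher and 0.108% lower. After scaling its levels were 0.362, 0.598 and 0.424 in Ela1-Myc and 1.64, 0.325 and 1.48 in WT, with a log2 change of -0.50 (limma adjusted p = 0.251), where 7.41% of symbols were called higher and 2.48% lower.

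Mast cell markers were low throughout. Of 20 markers in the list only Kit, the stem cell factor receptor, which other cells also make, had a mean of at least 1, and it was not called (log2 change 0.51, limma adjusted p = 0.187; after scaling -0.39, limma adjusted p = 0.324). The 20 markers summed to 4.87, 9.96 and 10.2 in Ela1-Myc and to 3.23, 4.03 and 3.84 in WT. These sums are on the deposited scale, where 75.3% of tested genes separated in that direction, and were neither scaled nor tested. Kit alone, at 2.32, was a large part of the sum in WT library 2. Of the proteases stored with carboxypeptidase A3, the chymase gene Cma1 was at 0.589, 1.96 and 0.803 in Ela1-Myc and 0.703, 0.116 and 0.397 in WT. The tryptase gene Tpsb2 was at 0.558, 1.51 and 0.967 in Ela1-Myc, against 0.675 and 0.371 in WT libraries 1 and 3 and a listed 0 in WT library 2. On the deposited scale Cma1, Tpsb2 and Cpa3 were thus each lowest in WT library 2 and highest in Ela1-Myc library 2. After scaling they were still lowest in WT library 2 but highest in WT library 1 (Cma1 1.73, Tpsb2 1.66 and Cpa3 1.64). Not all listed markers ran this way: Kit was lowest in WT library 1, at 0.506, and highest in Ela1-Myc library 3, at 3.15. Mcpt4, another chymase gene, did not overlap, at 0.348, 0.496 and 0.399 in Ela1-Myc, against 0.105 and 0.0375 in WT libraries 1 and 3 and a listed 0 in WT library 2. Most tested genes, 75.3%, likewise did not overlap in that direction, and after scaling Mcpt4 overlapped (limma adjusted p = 0.191). Mcpt1 and Mcpt9, further mast cell protease genes, were at 0 in Ela1-Myc. In WT they carried only the single value that 4281 symbols share within each WT library, which is no measurement of these genes. The ratio of Cpa3 to Cma1 was 1.03, 0.463 and 1.01 in Ela1-Myc and 0.947, 2.63 and 2.03 in WT (exact permutation p = 0.3).

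**Figure D4:**
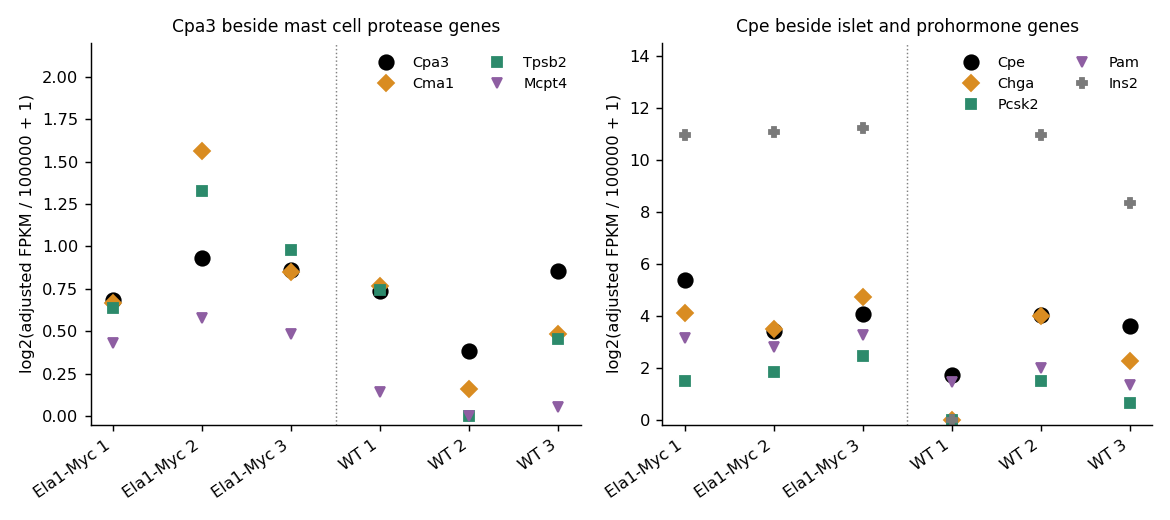
Log2(adjusted FPKM / 100000 + 1) by library, with the 3 Ela1-Myc libraries left of the dotted line and the 3 WT libraries right of it. The left panel shows Cpa3 with mast cell protease genes, all under 2 on this scale and lowest in WT library 2; the right panel shows Cpe with islet and prohormone genes, where Chga, Pcsk2 and Ins2 are at 0 in WT library 1 and Cpe is at its lowest there.

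Cpe (chromosome 8, 64592551 to 64693040, minus strand) had the widest spread of the 6 genes on the log scale. Its levels were 40.4, 9.46 and 15.7 in Ela1-Myc, against 2.32, 15.2 and 11.2 in WT. Ela1-Myc library 1 stood far above the rest and WT library 1 far below, and the other 4 libraries interleaved. The log2 change was 1.16 (SE 0.696, 95% interval -0.334 to 2.64; limma adjusted p = 0.144), close to the 1.22 of the median gene. After scaling it was -0.19 (SE 0.618, 95% interval -1.66 to 1.28; limma adjusted p = 0.828). Without Ela1-Myc library 1 the deposited-scale change was 0.61 and without WT library 1 it was 0.46, neither of them called.

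Cpe acts beside other genes of hormone processing. Of 12 genes for prohormone processing and granins, 7 were tested; 4 rose and none fell on the deposited scale, on which 70.2% of all tested genes were called higher, with a median log2 change of 1.21, and none rose and 1 fell after scaling, with a median of 0.42. Pam, the enzyme that amidates peptides after carboxypeptidase E has trimmed them, was at 7.73, 5.99 and 8.41 in Ela1-Myc and 1.74, 2.90 and 1.51 in WT. It rose by 1.47 on the log2 scale (limma adjusted p = 0.00331) and was not called after scaling, at 0.29 (limma adjusted p = 0.323). Pcsk2, a convertase that cuts prohormones upstream of Cpe, was at 1.79, 2.59 and 4.46 in Ela1-Myc, against 1.82 and 0.573 in WT libraries 2 and 3 and a listed 0 in WT library 1; it rose on the deposited scale (log2 change 1.21, limma adjusted p = 0.0107) and was not called after scaling (0.54, limma adjusted p = 0.346), nor on the deposited scale without Ela1-Myc library 3 (limma adjusted p = 0.0706) or WT library 1 (limma adjusted p = 0.0605). Pcsk1, the other such convertase, stayed under the filter at 0.623, 0.733 and 1.07 in Ela1-Myc and 0.126, 1.03 and 0.723 in WT. Chga, which encodes the granule protein chromogranin A, was at 15.9, 10.2 and 25.4 in Ela1-Myc, against 14.9 and 3.73 in WT libraries 2 and 3 and a listed 0 in WT library 1. Its log2 change of 2.02 passed (limma adjusted p = 0.0303) and that of 1.04 after scaling did not (limma adjusted p = 0.442); these fits take the listed zeros as measured. Without WT library 1, where it is listed at 0, the change was 0.98 (limma adjusted p = 0.195), and without Ela1-Myc library 1 or 3 the adjusted p was 0.116 or 0.149.

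Islet hormone genes bear on Cpe because beta and other endocrine cells are its main source in the pancreas. Ins2, an insulin gene, was at 1950, 2152 and 2381 in Ela1-Myc, against 1972 and 322 in WT libraries 2 and 3 and a listed 0 in WT library 1. Of 8 hormone genes 7 were listed at 0 in WT library 1, the library with the lowest Cpe, and the hormone sum was 2443, 2887 and 3367 in Ela1-Myc and 0.0592, 2470 and 395 in WT. Ela1-Myc library 1 had the highest Cpe and the lowest hormone sum of its group. Of the 7 hormone genes tested, 6 were called higher on the deposited scale and 2 after scaling. Over all tested genes the shares called higher were 70.2% and 18.1%. All 7 were listed at 0 in a WT library, so their calls rest in part on listed zeros. How much of the Cpe values goes with the endocrine share of each sample was not tested. The ratio of Cpe to Pam overlapped between the groups, at 5.23, 1.58 and 1.87 in Ela1-Myc and 1.33, 5.25 and 7.40 in WT (exact permutation p = 0.6).

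Cpd (chromosome 11, 76777208 to 76847008, minus strand) was the only one of the 6 genes whose deposited values did not overlap. Its levels were 3.45, 2.49 and 4.94 in Ela1-Myc, against 0.627, 1.09 and 1.41 in WT, or 3.63 ± 1.23 in Ela1-Myc and 1.04 ± 0.394 in WT (SD, n = 3 each). It rose by 1.16 on the log2 scale (SE 0.311, 95% interval 0.499 to 1.83; limma adjusted p = 0.00488), and the call held with any library left out. That is the majority pattern, since 75.3% of tested genes did not overlap in this direction and 0.534% in the other, and the median log2 change over tested genes was 1.22. After scaling Cpd had levels of 2.07, 1.65 and 2.57 in Ela1-Myc and 1.54, 1.17 and 2.60 in WT. These overlapped, and the log2 change of 0.18 (SE 0.244, 95% interval -0.397 to 0.763) was not called (limma adjusted p = 0.589). Furin, a convertase of the trans-Golgi network whose cleavage leaves the basic residues that carboxypeptidase D removes, was at 8.38, 2.84 and 6.35 in Ela1-Myc and 3.09, 6.60 and 3.76 in WT; the groups overlapped on this scale, and after scaling each Ela1-Myc library lay below each WT library (limma adjusted p = 0.0553). The ratio of Cpd to Furin was 0.412, 0.878 and 0.779 in Ela1-Myc and 0.203, 0.165 and 0.375 in WT, with no overlap (exact permutation p = 0.1). Of all tested genes, 60.7% had non-overlapping higher ratios to Furin in Ela1-Myc and 1.5% had lower ones. Of 5 furin-type convertase genes 3 were tested. On the deposited scale 1 was called higher, against 70.2% of all tested genes, and after scaling 1 was called lower, against 7.95%.

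Cpm (chromosome 10, 117629500 to 117687352, plus strand) was as low as Cpa3. Its levels were 0.765, 0.611 and 0.943 in Ela1-Myc, against 0.307, 0.707 and 0.818 in WT, with overlap, and it also fell under the filter. In the fit without the filter its log2 change was 0.15 (SE 0.199, 95% interval -0.336 to 0.633; limma adjusted p = 0.525). After scaling the levels were 0.458, 0.404 and 0.492 in Ela1-Myc, all below 0.756, 0.756 and 1.51 in WT, yet the log2 change of -0.45 was not called (limma adjusted p = 0.136). Among tested genes, 17.2% did not overlap in that direction after scaling and 30.4% in the other, while Cpa1, Cpb1 and Cpm did so downwards and none of the 6 upwards.

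Setting each gene against Cpa1 in its own library removes the library scale. Per 1000000 units of Cpa1, Cpe stood at 1522, 897 and 887 in Ela1-Myc and 115, 193 and 339 in WT, a fold of 5.44 between geometric means. Cpd stood at 130.2, 236 and 279 in Ela1-Myc and 31.1, 13.8 and 42.7 in WT, a fold of 7.76, and Cpm at 28.9, 57.9 and 53.2 in Ela1-Myc and 15.2, 8.94 and 24.8 in WT, a fold of 2.97. None of these 3 overlapped (exact two-sided permutation p = 0.1 each, 0.167 adjusted over the 5 genes set against Cpa1). Cpa3 did overlap, at 22.8, 85.8 and 45.9 per 1000000 in Ela1-Myc and 33.0, 3.85 and 24.4 in WT (exact permutation p = 0.3, adjusted 0.375). Of all tested genes 93.2% lay higher against Cpa1 in every Ela1-Myc library and 0% lower, so this separation holds for nearly every gene and is not particular to Cpe, Cpd and Cpm.

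Genes whose course over the libraries was closest to the low members were of mixed kinds, and are given by the same measure of likeness. Nr1d1 (SD 0.259), the circadian repressor REV-ERB alpha, was closest to Cpa3. Mzt2 (0.292) and Pabpc4 (0.314), a poly(A)-binding protein, were closest to Cpe. Islr (0.244) and Hnrnpl (0.351), an RNA-binding splicing factor, were closest to Cpd, and Fut8 (0.193), the core fucosyltransferase, and Gclm (0.201), a subunit of the enzyme that starts glutathione synthesis, to Cpm. No listed mast cell marker or islet hormone gene could appear here, because of the limits set on candidates. All 8 islet hormone genes were listed at 0 in a WT library, and every listed mast cell marker had a mean below 5. Among the 6 genes, the low members lay 0.777 to 1.56 from each other and 0.863 to 1.74 from Cpa1 or Cpb1.

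Further carboxypeptidase genes are read against the 70.2% of tested genes called higher on the deposited scale and the 18.1% after scaling. Of 6 further genes of the N/E type, to which Cpe, Cpd and Cpm belong, 4 were tested; 3 rose on the deposited scale and none fell, with a median log2 change of 2.33, and 1 rose after scaling. The 3 were Aebp1 and Cpxm1 and Cpxm2, for proteins that keep the carboxypeptidase fold with little or no known catalytic activity, and each was listed at 0 in at least 1 WT library. Aebp1 was at 13.5, 16.6 and 15.5 in Ela1-Myc, against 2.02 and 2.29 in WT libraries 1 and 2 and a listed 0 in WT library 3 (limma adjusted p = 0.000205, after scaling 0.066). Cpxm2, at 3.11, 2.48 and 4.11 in Ela1-Myc and listed at 0 in all 3 WT libraries, passed the filter only through its Ela1-Myc values; its adjusted p after scaling (limma, 0.00164) rests on those listed zeros. Cpn1, for the catalytic subunit of plasma carboxypeptidase N, overlapped at 22.7, 4.67 and 11.0 in Ela1-Myc and 5.30, 16.8 and 6.47 in WT. All 4 lysosomal and serine carboxypeptidase genes rose on the deposited scale, and 1 after scaling. That one was Scpep1, at 19.1, 19.3 and 19.0 in Ela1-Myc and 1.84, 3.11 and 0.155 in WT, with log2 changes of 3.08 (limma adjusted p = 0.000173) and, after scaling, 1.97 (limma adjusted p = 0.0377). Ctsa, for lysosomal protective protein, was at 17.9, 23.7 and 24.0 in Ela1-Myc and 1.67, 9.13 and 2.21 in WT (limma adjusted p = 0.00252, after scaling 0.0664). Of 6 cytosolic carboxypeptidases, which trim tubulin tails, only Agtpbp1 was tested; it was at 3.91, 3.46 and 5.11 in Ela1-Myc and 1.75, 4.84 and 2.52 in WT, was not called on the deposited scale and was called lower after scaling.

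Markers of other cell types were also measured, against 70.2% of all tested genes called higher on the deposited scale and 18.1% after scaling. Macrophage markers, 12 genes of which 10 were tested, summed to 289, 965 and 690 in Ela1-Myc and 33.8, 52.1 and 1.38 in WT, with 10 called higher on the deposited scale and 8 after scaling; Adgre1 (listed as Emr1), a macrophage surface receptor gene, was at 7.38, 15.7 and 22.3 in Ela1-Myc, against 0.734 in WT library 2 and a listed 0 in WT libraries 1 and 3, and Cd68 was listed at 0 in all WT libraries. One or more WT libraries listed a 0 for 8 of the tested macrophage markers, and for 3 of the 9 tested stellate and fibroblast markers and 4 of the 8 tested duct markers, so their calls rest in part on listed zeros. Stellate and fibroblast markers summed to 375, 573 and 584 in Ela1-Myc and 79.0, 113 and 50.1 in WT, with 8 of 9 called higher and 3 after scaling. Duct markers summed to 201, 334 and 378 in Ela1-Myc and 74.6, 210.1 and 129 in WT, with 6 of 8 called higher on the deposited scale, and 2 higher and 1 lower after scaling. The part of these cells in the values of Cpd, Cpm and the lysosomal and N/E type genes was not tested. On equal library totals 90.6% of tested genes were called higher and 0.273% lower, among them Cpd and Cpe higher and Cpa1 and Cpb1 lower.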

How the data were processed

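RNA-seq values of 6 libraries, 3 Ela1-Myc and 3 WT, were used as deposited. Per the file headers, each file gives 1 adjusted FPKM per gene, and the authors' way of adjusting it is not stated in the labels or headers. TopHat2 2.0.4, Cufflinks 2.0.2 and build GRCm38 (mm10) are listed, per the submitters' processing notes. Stranded libraries were made with dUTP, per the labels' protocols. No counts were used here, so depth, counting intervals and detection limits are unknown. The stated minimum integrity number lies above that given for 5 of the 6 libraries.

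All values were divided by 100000. Of 23422 rows with 23099 symbols, 187 symbols had several rows, of which the one of highest mean entered. The 8802 genes whose mean reached 1 went into limma 3.58.1 (R 4.3.3), fitted to log2(value + 1), a pseudocount of 1, with an intensity trend. Tests were two-sided, and adjusted p-values (Benjamini-Hochberg) under 0.05 were called. Fold changes on this scale understate the change of low genes. A gene at 0 in most WT libraries passes the filter largely through its Ela1-Myc values. Cpa3 and Cpm, with means below 1, were taken from a fit without the filter. Median-of-ratios factors came from 6995 genes above 0 in all libraries and with a mean of at least 1. Shares and ratios were compared by an exact permutation test (scipy 1.17.1), whose smallest p is 0.1. The change relative to Cpa1 had been planned as a limma fit, but subtracting 1 gene from all others left its residuals in every gene and 8246 of 8801 genes were called, so the exact test was used instead, a choice made after seeing the data. The limma fit was tested on simulated data. Replicates carry accession-order numbers. Of 143 list entries 142 matched a symbol, 3 through a RefSeq synonym (Pgcp, Gm13011 and Emr1); Pdgfrb was not analysed here. Promoters are from RefSeq (GRCm38.p6), and 5 of the 6 genes had one.

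The genes and lists were chosen with earlier results of these data known. Named were the 6 genes, a set named whatever its result, up to 4 called members of a list, the 4 genes closest to each of the 6 and neighbours within 200 kb; some that met this rule are given by range or count only, 1 is not reported here, and Mcpt4, Tpsb2, Mcpt1, Mcpt9, Pam, Ctsa, Agtpbp1, Cpn1, Gapdh and Ptf1a were named after their values were seen. Alternatives covered the library scale, pseudocount, filter, variance model and left-out libraries. Python 3.11.15 and matplotlib 3.10.9 drew the figures.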

Additional observations from a re-analysis of the deposited data

How the results depend on the processing

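No paired analysis was possible because the labels give no replicate numbers. For Cpa1 and Cpb1 the decrease of 1.14 and 0.98 log2 units kept its sign under every alternative run but lost the call under several: no filter (adjusted p = 0.304 and 0.331; log2 -1.14 and -0.98), no trend (0.0899 and 0.0786), a pseudocount of 0.1 (0.117 and 0.110) or of 1 on the deposited scale (0.582 and 0.620, an alternative chosen after seeing the data), and quantile normalization (log2 -0.36 and -0.0425). Leaving out libraries gave -1.58 to -0.60 and -1.38 to -0.60. The number called lower was 2, or 0 under those settings, and 0 to 2 with a library left out. Cpd kept its call with each library left out (0.97 to 1.35) and lost it with equal totals without the digestive enzymes (0.69) and median-of-ratios scaling (0.18; 0.0185 to 0.34 with a library left out), and quantile normalization turned it to -0.19. The number called higher was 1, against 0 under these 3 scalings and 2 with equal totals or only genes above 0 in all libraries. Cpe was called under those last 2 (1.66 and 1.16), and turned to -0.19 under median-of-ratios scaling (-0.78 to 0.18 with a library left out) and -0.39 under quantile normalization. Cpa3 turned to -0.19 with equal totals without the enzymes, -0.50 with median-of-ratios (-0.82 to -0.37) and -0.83 with quantile normalization; Cpm to -0.13, -0.45 (-0.62 to -0.34) and -0.81, the last with an adjusted p of 0.0431, and array weights called it higher at 0.38, in a fit that stopped before it converged. Among other genes, Lxn turned to -0.55 and -0.79 and Kit to -0.39 and -0.75 under median-of-ratios and quantile scaling, and Pam to -0.00732 under quantile scaling. Relative to Cpa1, on log2(value + 1), Cpb1 lay at 0.16 and, with a library left out, between -0.00115 (without WT 2) and 0.28; quantile normalization turned Cpa3 to -0.47, Cpe to -0.0361 and Cpm to -0.45. The cause of these turns was not tested. The share of Cpa1 and Cpb1 fell by 1.55 to 2.15 percentage points with any library left out; against the sum outside the digestive enzyme lists the difference was -26.2 points (means 10.6% in Ela1-Myc and 36.8% in WT). Filter, trend and array weight alternatives of the change relative to Cpa1 were not run, since its test became a permutation of single values. Unknown depth and the listed zeros limit the low genes most.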
